A study of Homo sapiens with 2 samples.

Results

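SYK, ZAP70 and the Src-family kinases are non-receptor tyrosine kinases that relay signals from receptors at the inner face of the plasma membrane. Members were all probe sets of the deposited table whose platform annotation gives exactly 1 gene symbol, that symbol being SYK, ZAP70, SRC, FYN, YES1, LYN, LCK, FGR or FRK. This gave 29 probe sets of 9 genes, out of 54675 probe sets and 19775 genes in all. A probe set is a group of short oligonucleotides on an Affymetrix array that together give 1 value. Some are annotated to more than 1 gene, and a gene can have several probe sets.

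The study set Panc1 cells transfected with SYK, called reexpression in the series' design text, against cells carrying the empty vector. Panc1 is a human line from a pancreatic ductal adenocarcinoma. The syk-wt cells were a stable population transfected with wild-type syk, and the mock cells a stable population transfected with vector only. Both were kept under hygromycin, passaged for 2 months and harvested below confluence, and the series title calls the mock cells drug-resistant. Each population was sampled once, and the promoter of the vector and the SYK level of the parental line are not given in the sources used here. With 1 array for each population there is neither a standard error nor a test for any value, and the number of arrays limits the precision. Population, RNA preparation and array cannot be told apart. On bulk RNA, fewer cells expressing a gene and less of its RNA per cell cannot be told apart either.

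In immune cells, Src-family kinases such as LYN, LCK and FYN phosphorylate paired tyrosines in the tails of antigen and Fc receptors. SYK in B cells and myeloid cells, and ZAP70 in T cells, bind these phosphotyrosines through their tandem SH2 domains and pass the signal to adaptors and phospholipase C gamma. In epithelial cells SRC, YES1 and FYN act mainly at integrin adhesions and growth factor receptors, and loss of SYK has been described in several carcinomas, including those of the breast and pancreas.

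Values are log2 intensities, on which a difference of 1 is 2-fold. Over all probe sets the array medians were 4.24 (syk-wt) and 4.26 (mock). As a guide to dim signal, the highest value among 27 bacterial control probe sets, 4.77, served as a floor. It rests on 1 probe set, the second highest of these controls having reached 3.61. Control probe sets of ACTB and GAPDH bear on RNA integrity. For ACTB the 3' signal exceeded the 5' signal by 2.37 on the syk-wt array and by 1.95 on the mock array. For GAPDH the excess was 0.32 (syk-wt) and 0.19 (mock). The part of these excesses in the results below was not tested. Epithelial markers were above the floor on at least 1 array in 8 of 8 genes, with the simple keratin KRT18 at 13.1 (syk-wt) and 13.3 (mock). The adhesion molecule E-cadherin, CDH1, was at 3.47 on the syk-wt array, below the floor, and at 6.34 on the mock array. As a list, 6 of the 8 epithelial markers read lower on the syk-wt array by their brightest probe sets, with a median of -0.63. Of all genes above the floor on at least 1 array, 47.6% read lower. Of the 8, 3 passed 2-fold downward (CDH1, KRT19 at -1.45 and MUC1 at -1.04), against 2.44% of all genes. The other probe set of CDH1 was at -0.46 and that of KRT19 at -0.37. KRT7 counts among the 6 at -0.49, although only 1 of its 4 probe sets read lower. The only fibroblast marker above the floor, COL1A1, differed by -1.09 in its brightest probe set, and its 5 probe sets ran from -1.09 to -0.09. The part of these marker differences in the lower values of YES1, LYN and the pathway genes below was not tested. The leukocyte antigen PTPRC, which marks nearly all white blood cells, was at 2.996 (syk-wt) and 2.88 (mock), below the floor. Of 6 measured blood cell markers, CD79A and HBB were above it, at 5.24 (syk-wt) and 5.06 (mock) for CD79A and at 5.093 (syk-wt) and 4.996 (mock) for HBB. The linear signals of these 6 markers summed to 122.3 on the syk-wt array and 114.6 on the mock array.

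Most of the kinase probe sets were dim. Of the 29, 22 lay at or below the floor on both arrays, 1 crossed it and 6 were above it on both. Those 6 belonged to YES1, LYN and SRC, and the 1 that crossed it to FYN. SYK, ZAP70, LCK, FGR and FRK had no probe set above the floor on either array. Differences from 0 were split, with 12 probe sets higher on the syk-wt array, 15 lower and 2 equal. The median difference was -0.07, against 0 over all probe sets.

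**Figure D1:**
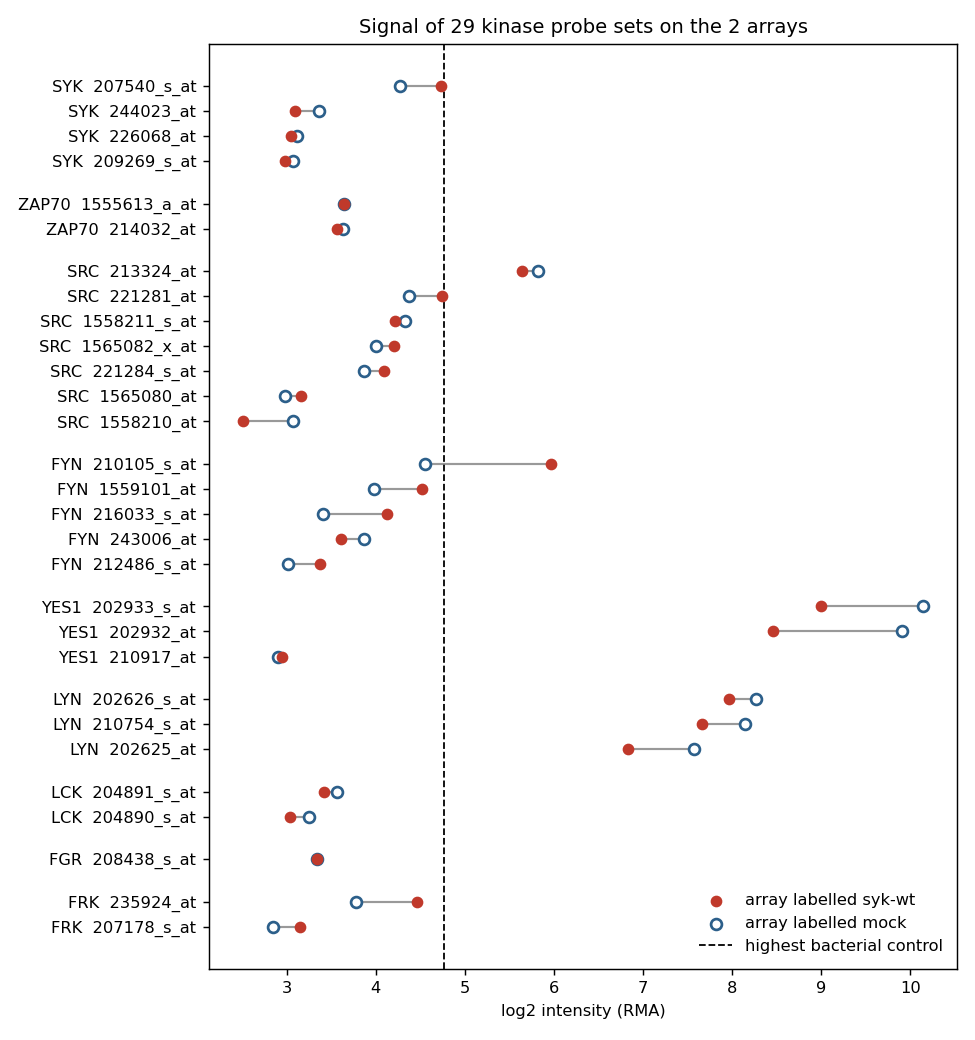
Log2 intensity (x axis) of each of the 29 kinase probe sets (rows, grouped by gene) on the array labelled syk-wt (filled) and the array labelled mock (open), 1 array each. The dashed line is the highest bacterial control, 4.77; YES1, LYN, 1 SRC and 1 FYN probe set reach beyond it.

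SYK, the introduced kinase, gave no clear check of the labels. Its brightest probe set, 207540_s_at, which the annotation ties to a RefSeq mRNA, read 4.73 on the syk-wt array and 4.27 on the mock array, a difference of 0.46. Both values were below the floor. Among the 1000 probe sets nearest in brightness, differences had an SD of 0.46, the same size as that of this probe set.

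The other SYK probe sets are tied to GenBank entries that are not RefSeq mRNAs, and all of them read lower on the syk-wt array. The probe set 244023_at read 3.09 (syk-wt) and 3.37 (mock), a difference of -0.27. The probe set 226068_at read 3.05 (syk-wt) and 3.12 (mock), and 209269_s_at read 2.98 (syk-wt) and 3.07 (mock). The mean difference over the 4 SYK probe sets was 0.0077, with an SD of 0.32 between them. Their positions against the introduced cDNA were not analysed here, and a position outside it would check nothing. Every direction below therefore rests on the labels of the arrays.

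ZAP70, the paralog of SYK that serves T cell receptors, was dim and all but equal on the arrays. Its probe set 1555613_a_at read 3.65 on both the syk-wt and the mock array, the same to the last deposited digit. The other, 214032_at, read 3.57 (syk-wt) and 3.64 (mock).

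Among the kinases, 3 probe sets passed 2-fold, against 3.54% of all probe sets. By gene, taking the brightest probe set of each, 2 of 9 passed, FYN upward and YES1 downward, against 4.96% of all genes. Of the 9 genes, 5 passed the filter on dim signal (a mean over both arrays at or above 4.25, the median over all probe sets), and 7.26% of all genes past that filter differed 2-fold. Of these 5, YES1, LYN and SRC were above the floor on both arrays, FYN only on the syk-wt array and SYK on neither.

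YES1, a broadly expressed Src-family kinase of epithelia and fibroblasts, was the brightly detected member with the largest difference. Its probe set 202933_s_at read 8.99 on the syk-wt array and 10.1 on the mock array, a difference of -1.15, or 2.23-fold lower. The probe set 202932_at read 8.47 on the syk-wt array and 9.90 on the mock array, a difference of -1.44, or 2.71-fold lower. Both signals were far above the floor on each array, and both probe sets are tied to the YES1 RefSeq mRNA. Of the 10523 genes with at least 2 probe sets, 1.34% had at least 2 of them 2-fold lower on the syk-wt array. Among the probe sets nearest in brightness to 202933_s_at, 5.01% passed 2-fold in either direction.

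The third YES1 probe set, 210917_at, lay below the floor, at 2.95 (syk-wt) and 2.90 (mock). Cross-hybridisation with the YES1 pseudogene, YES1P1, or with other Src-family transcripts was not tested, since probe sequences were not used here.

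LYN, the Src-family kinase best known from B cells and myeloid cells, was also bright in these carcinoma cells, and its 3 probe sets all read lower on the syk-wt array without reaching 2-fold. The probe set 202626_s_at read 7.96 (syk-wt) and 8.27 (mock), a difference of -0.31. The probe set 210754_s_at read 7.67 (syk-wt) and 8.15 (mock), a difference of -0.48. The largest difference was that of 202625_at, at 6.83 (syk-wt) and 7.58 (mock), which is -0.75 or 1.68-fold lower.

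As a partial guide to precision, the difference varied between probe sets of 1 gene with a pooled SD of 0.35, taken over the 6028 genes that had more than 1 probe set past the filter. This SD covers probe behaviour and transcript variants and no variation between cultures. Of the LYN differences, that of 202626_s_at was smaller than this SD and the others were larger. Among probe sets as bright as 202625_at, 8.51% passed 2-fold and the SD of the differences was 0.59, so a difference of -0.75 is not rare on these arrays.

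SRC itself, the founding member of the family and a kinase of adhesions, had 1 of 7 probe sets above the floor. That probe set, 213324_at, read 5.65 (syk-wt) and 5.82 (mock), a difference of -0.17 that is smaller than the spread between probe sets of 1 gene. The other SRC probe sets read at most 4.75 on either array. Of all 7, 4 were higher and 3 lower on the syk-wt array, between -0.56 and 0.37, and their mean was 0.02. The direction for SRC turns with the summary used: the median over its probe sets was 0.17.

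The lowest SRC difference came from 1558210_at, with 2.51 on the syk-wt array and 3.07 on the mock array, both close to the lowest values of the table (2.19 and 2.14). The highest came from 221281_at, tied to a RefSeq mRNA, with 4.75 (syk-wt) and 4.38 (mock).

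FYN, a Src-family kinase of T cells, neurons and many adherent cells, read higher on the syk-wt array in 4 of 5 probe sets. The brightest, 210105_s_at, read 5.97 on the syk-wt array and 4.56 on the mock array, a difference of 1.41. Because the mock value lies below the floor, the fold is a lower bound, at least 2.30-fold higher. Of genes with at least 2 probe sets, 4.79% had at least 1 that was 2-fold higher on the syk-wt array.

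The remaining FYN probe sets lay below the floor on both arrays. The probe set 216033_s_at read 4.13 (syk-wt) and 3.41 (mock), and 1559101_at read 4.51 (syk-wt) and 3.98 (mock), differences of 0.72 and 0.54. The probe set 212486_s_at read 3.37 (syk-wt) and 3.02 (mock), and 243006_at went the other way, with 3.62 (syk-wt) and 3.87 (mock). FYN thus passed 2-fold by 1 probe set, and the mean over its probe sets was 0.55.

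FRK, an epithelial kinase related to the Src family, read higher in both probe sets, all values being below the floor. The probe set 235924_at read 4.46 (syk-wt) and 3.78 (mock), a difference of 0.68, and 207178_s_at read 3.15 (syk-wt) and 2.85 (mock), a difference of 0.31. No fold is given, since neither array rose above the floor.

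LCK and FGR, kinases of lymphocytes and of myeloid cells, were dim on both arrays. The LCK probe sets read 3.42 (syk-wt) and 3.57 (mock) for 204891_s_at, and 3.04 (syk-wt) and 3.25 (mock) for 204890_s_at. The FGR probe set 208438_s_at read 3.35 on both arrays, the same to the last digit.

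**Figure D2:**
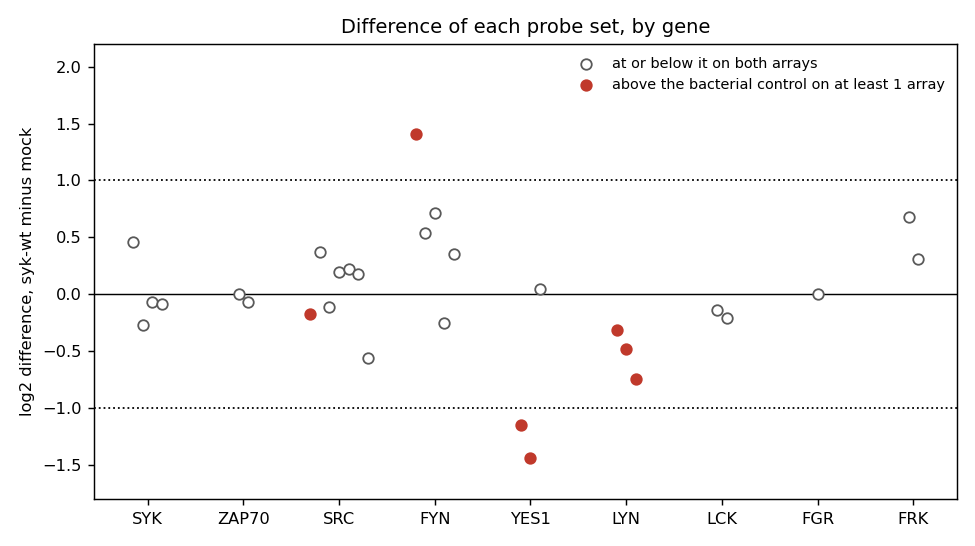
Log2 difference, syk-wt minus mock (y axis), of each probe set of the 9 kinase genes (x axis), filled where at least 1 array was above the highest bacterial control. Dotted lines mark 2-fold. The 2 bright YES1 probe sets lie below the lower line, 1 FYN probe set lies above the upper line, and the 3 LYN probe sets lie between 0 and the lower line.

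Set among all probe sets, the bright YES1 values lay toward the low side of the cloud at their brightness and the brightest FYN value toward its high side. Of the 1000 probe sets nearest in brightness, 1.80% had a lower difference than YES1 202933_s_at and 0.90% a lower one than 202932_at. For LYN the shares were 22.8% (202626_s_at), 15.6% (210754_s_at) and 8.71% (202625_at). No such share is given for FYN or SYK, since at least 1 of their values lay below the floor. These shares describe 2 arrays and are no test of the populations.

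**Figure D3:**
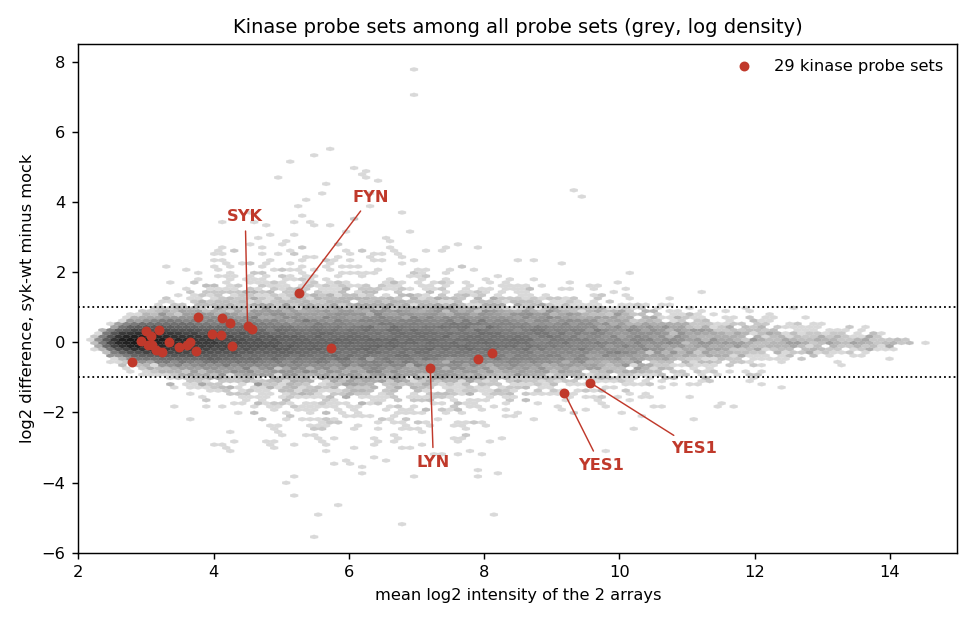
Log2 difference, syk-wt minus mock (y axis), against the mean log2 intensity of the 2 arrays (x axis) for all 54675 probe sets (grey, darker where more probe sets lie) and the 29 kinase probe sets (red). Dotted lines mark 2-fold; the labelled YES1 and FYN probe sets are outside them, and the labelled SYK probe set lies inside at 0.46.

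Genes next to YES1 on chromosome 18 were also mostly lower on the syk-wt array. The neighbours taken were the 5 nearest protein-coding genes with a probe set on each side in the RefSeq order, a window chosen after earlier results were known. Of these 10, 6 were above the floor on at least 1 array, and 5 of the 6 read lower by brightest probe set, with a median of -0.63. Over all 11860 genes above the floor on at least 1 array, 47.6% read lower and the median was 0.02. The nearest, TYMS, which makes thymidylate for DNA synthesis, read 11.4 (syk-wt) and 12.4 (mock), a difference of -0.94, with its 3 probe sets between -1.06 and -0.15. The kinetochore gene NDC80 and the chromatin gene SMCHD1 differed by -0.65 and -0.64, and THOC1, of an mRNA export complex, by -0.61. The 6 SMCHD1 probe sets ran from -0.84 to 0.26. METTL4 differed by -0.09. The exception was EMILIN2, an extracellular matrix glycoprotein, at 0.69, although its 3 probe sets ran from -0.32 to 0.69.

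By its brightest probe set, LYN went against its neighbours above the floor, while FYN had neighbours of both signs. Around LYN on chromosome 8, all 5 neighbours above the floor read higher on the syk-wt array, between 0.38 and 1.02, while LYN read lower. Around FYN on chromosome 6, 4 of 7 neighbours above the floor read higher and 3 lower, with a median of 0.17. FAM229B, 3 genes from FYN, was 3.31-fold higher, at 9.16 (syk-wt) and 7.43 (mock). Around SRC on chromosome 20, 7 of 8 neighbours above the floor read higher, while the direction for SRC itself turns with the summary used. DNA copy number was not measured, and its part in these values was not tested.

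**Figure D4:**
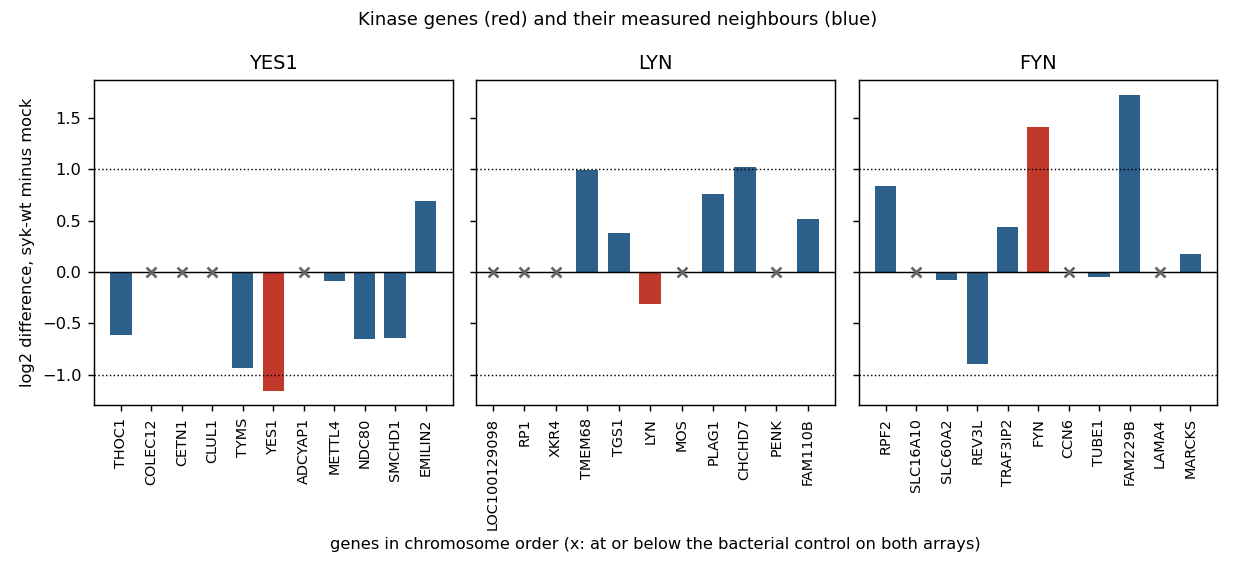
Log2 difference, syk-wt minus mock (y axis), of YES1, LYN and FYN (red) and of the 5 nearest measured genes on each side (blue, in chromosome order along the x axis), by the brightest probe set of each gene. Crosses at 0 stand for genes at or below 4.77 on both arrays, whose differences are not drawn. Bars around YES1 mostly point down and those around LYN up.

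Genes that regulate the Src family were not past 2-fold in either direction (0 of 19 measured, with a median of 0.05, against 4.96% of all genes and a median of 0.03). PAG1, a membrane adaptor that brings the inhibitory kinase CSK to Src-family kinases, was 1.87-fold higher, at 8.49 (syk-wt) and 7.59 (mock). That is its brightest probe set, and its 3 probe sets, all above 0, ran from 0.05 to 0.91. CSK, named here for its role, read 7.96 (syk-wt) and 7.85 (mock). The ubiquitin ligases CBLB and CBL, which tag activated kinases for degradation, differed by 0.46 and -0.41, although only 2 of 5 CBL probe sets read lower (from -0.95 to 0.19). The docking protein DOK2 had a mock value below the floor and was higher by at least 0.11 against it.

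Of 18 other cytoplasmic tyrosine kinases 0 passed 2-fold, against 4.96% of all genes (a list of this size can hold none at that share), and their median was -0.08. Those with the largest differences among the detected were ABL1 (-0.33), the focal adhesion kinase PTK2 (-0.31), ABL2 (0.24) and the epithelial kinase PTK6 (-0.22). By these brightest probe sets each differed by less than the spread between probe sets of 1 gene, while another PTK2 probe set was at 0.93 and another ABL2 probe set at 0.63. YES1 lay below the range of these kinases, whose differences ran from -0.37 to 0.72, the highest being that of JAK2, below the floor on both arrays.

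Immunoreceptor chains with tyrosine motifs were mostly below the floor (10 of 12). Many of their tails, once phosphorylated, are docking sites of SYK or ZAP70. Of the 12, 0 passed 2-fold, which against 4.96% of all genes says nothing particular about them. The chains above the floor were CD79A, a B cell receptor subunit, and the adaptor HCST, which is not counted among those docking sites. By brightest probe set they differed by 0.18 and 0.16, while the other CD79A probe set was at -0.25. The Fc receptor gamma chain FCER1G read 3.76 (syk-wt) and 3.59 (mock) and the adaptor TYROBP 2.96 (syk-wt) and 3.19 (mock). Both are partners of SYK in myeloid cells and are named here for that role.

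Of 16 measured targets and adaptors of SYK and ZAP70, taken by brightest probe set, 1 was 2-fold lower on the syk-wt array and 0 were higher. Of all genes, 2.44% were 2-fold lower, and the median of the list was -0.20. The gene past 2-fold was VAV2, a guanine nucleotide exchange factor, at 6.16 (syk-wt) and 7.25 (mock), 2.12-fold lower, although its 3 probe sets ran from -1.09 to -0.02. The alpha-tubulin TUBA1A read 11.5 (syk-wt) and 12.5 (mock), a difference of -0.96. Alpha-tubulins are close paralogs, and cross-hybridisation among them was not tested. The phosphoinositide 3-kinase subunit PIK3R1 differed by -0.66, although its 3 probe sets ran from -0.72 to -0.03. BCL10, which links receptors to NF-kappaB, differed by -0.46, although it had another probe set at 0.75. The adaptor SH3BP2, named here for its range, differed by -0.20 in its brightest probe set. Its 5 probe sets all read lower, from -2.04 in a dimmer one to -0.17. The blood cell adaptors LCP2 and BLNK were below the floor on both arrays.

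Substrates and partners of Src-family kinases read lower on the syk-wt array in 15 of 17 genes, against 45.2% of all genes, with a median of -0.27. Of the 13 above the floor on at least 1 array, 11 read lower, against the 47.6% of such genes given above. Of the 17, 3 passed 2-fold downward and 0 upward, again against 2.44% of all genes. STAT3, a transcription factor activated by tyrosine phosphorylation, read 10.1 (syk-wt) and 11.4 (mock), 2.33-fold lower, with all 4 probe sets below 0 (from -1.22 to -0.17). Paxillin, PXN, a scaffold of focal adhesions, read 8.88 (syk-wt) and 9.90 (mock), 2.02-fold lower, with differences of -1.01 and -1.07 in its probe sets. After median centring of each array the first was -0.995, short of 2-fold. The gene AFAP1, an actin-binding partner of SRC, passed 2-fold between values below the floor, 3.33 (syk-wt) and 4.53 (mock). The adhesion protein TNS3 differed by -0.93 in 1 probe set and by 0 in the other.

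The adaptor p130Cas, BCAR1, went the other way from PXN, at 7.74 (syk-wt) and 7.06 (mock), a difference of 0.67 in the brighter of its probe sets and 0.21 in the other. The epidermal growth factor receptor, EGFR, differed by -0.27 in its brightest probe set, while only 4 of its 9 probe sets read lower (from -0.51 to 0.54). These lists were chosen with earlier results of these data known, so their counts are a description of these arrays.

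**Figure D5:**
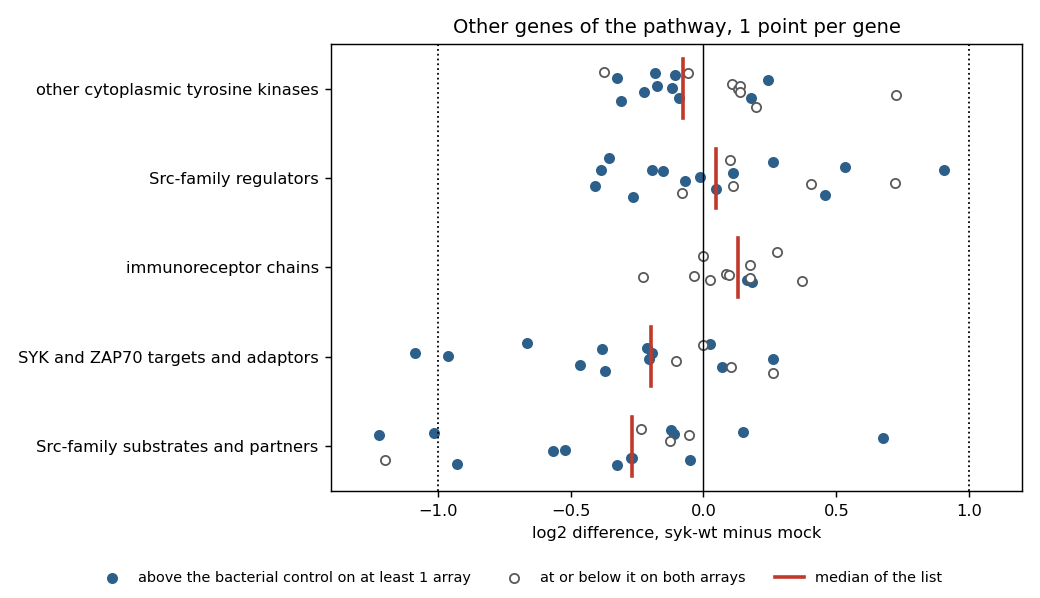
Log2 difference, syk-wt minus mock (x axis), for the brightest probe set of each gene in 5 lists (rows), filled where at least 1 array was above the highest bacterial control, with the list median as a red line. Vertical spread within a row carries no value. Dotted lines mark 2-fold; the points beyond the lower line are VAV2, STAT3, PXN and the dim AFAP1, and no point lies beyond the upper line.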

How the data were processed

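The series matrix gives the signal of 54675 probe sets on each of 2 arrays (100 ng total RNA each, per the labels' protocols). The deposited values were taken as log2 intensities from their range. The submitters' processing notes name RMA, a background correction, quantile alignment and probe summary, with no version or settings. RMA compresses differences between dim probe sets. Genes were named from the platform annotation: 41097 probe sets had 1 symbol, 1801 had several and 11777 were not named here, and only the first were used for genes.

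From these values the difference syk-wt minus mock was computed per probe set (Python 3.11.15, pandas 2.3.3), and a gene took the probe set with the highest mean. With 1 array per group no test was run. The calculation was tested on simulated data, in which all probe sets of a gene shared the same shift. That tests the code and not the 2-fold calls on these arrays. The 9 kinases, the gene lists (5, plus 5 of markers) and the rule for naming genes (all members, and up to 4 detected genes with the largest difference per list) were chosen with earlier results of these data known. Alternatives (9) changed 1 choice at a time. Listed genes with no probe set of 1 symbol in the annotation used were not analysed here.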

Additional observations from a re-analysis of the deposited data

How the results depend on the processing

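Median centring, removal of a loess trend (span 0.2) and a filter on the brighter array left the count of kinase probe sets past 2-fold at 3 and that of genes at 2. The genes past 2-fold were 0 when a gene took the mean of its probe sets, 1 with the median, 1 with probe sets ending in _at alone and 1 with a filter at the 75th percentile. The probe sets past 2-fold were 1 with those ending in _at alone. These settings drop or dilute FYN 210105_s_at or the YES1 probe sets by construction. The SYK difference was 0.0077 with the mean, -0.078 with the median and -0.27 with probe sets ending in _at alone. With the floor it was 0 by construction, since all SYK values lie below the floor. Of all genes, 581 passed 2-fold with the mean, 588 with the median and 486 with the stricter filter, against 930. Genes of the 5 lists past 2-fold were 2 with the mean and 3 after median centring, which takes PXN to -0.995, against 4. The mean took STAT3 to -0.86 and VAV2 to -0.47, and the median took VAV2 to -0.29. The YES1 difference stayed negative under each alternative run, between -1.44 and -0.85. No paired analysis was possible because each population had 1 array. No counts exist for arrays. At or below the floor on both arrays lay 22 of 29 kinase probe sets. That number depends on the 1 control probe set at 4.77, the second highest having reached 3.61, and no count was made at the lower level.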

Other observations

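Many deposited differences recur exactly. Both arrays held the same value in 2189 probe sets (4.004%), among them ZAP70 1555613_a_at and FGR 208438_s_at. A further 16601 probe sets (30.4%) had a difference that at least 20 probe sets shared to 6 decimals, and the share was 53.5% below the median brightness and 7.19% at or above it. The largest shared difference was 0.43 in absolute size. Of the kinase probe sets, 10 had such a shared difference. SYK 226068_at and ZAP70 214032_at differed by the same -0.07, which 52 probe sets shared. None of the 7 kinase probe sets above the floor on at least 1 array (YES1, LYN, SRC and FYN) was among these.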
